A study of Gallus gallus with 16 samples.

Results

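The comparison of FDMR 6 h with FDMR 0 h asked which genes differed in the back of the chick eye once a form-deprived eye had seen normally for 6 h. It rested on 8 of the 16 RNA-seq libraries, chosen by the group that the sample labels give. These were the 4 FDMR 6 h chicks (18, 19, 21 and 23) and the 4 FDMR 0 h chicks (9, 10, 12 and 13). The labels call the latter FDM (7 days), and FDMR 0 h is the name used here. Of the 17108 genes in the count table, 11334 had at least 10 counts in at least 4 of the 16 libraries and were tested. All 8 were male Leghorn/New Hampshire chicks, and the right eye of each had worn a translucent occluder for 7 days, which produces form deprivation myopia. FDMR 6 h chicks then saw normally for 6 h, whereas FDMR 0 h chicks were collected when the occluder came off. The 4 FDMR 24 h chicks (24 h of normal vision) and the 4 No-Lens controls (never occluded) entered the same fit. They shared in the count filter, the scaling and the estimate of spread behind each p-value. Their values are given below only beside the main comparison.

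Each library came from 1 right eye and held the retina, retinal pigment epithelium (RPE) and choroid together, so fewer cells of a type and less RNA per cell cannot be told apart. The authors took 4 of the 8 chicks measured at each time because their axial lengths were alike. The labels give post-hatch day 20 for all 8 chicks compared, while the study's methods give an earlier age, and the files did not settle which holds. Occluders were removed in the morning of a light cycle, and FDMR 6 h eyes were therefore collected 6 h later in the day than FDMR 0 h eyes. Recovery and hour of day cannot be told apart in this comparison. FDMR 24 h eyes were collected at the hour of the FDMR 0 h eyes on the next day, and they are compared with the same FDMR 0 h chicks.

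An occluder blurs the retinal image, and the young eye answers by growing too long. When clear vision returns, the retina, RPE and choroid take part in a signal that slows growth. The same tissue follows the day. In the clock loop, ARNTL with CLOCK or NPAS2 switches on the period and cryptochrome genes, whose proteins switch these factors off, and in the chick eye melatonin synthesis and many photoreceptor genes follow this loop. Cones, which dominate the chick retina, turn light into a fall in cyclic GMP through an opsin, a G protein and the phosphodiesterase PDE6, which closes a cation channel, and shutoff and calcium feedback proteins then reset the cell.

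Values are given as CPM, the counts of a gene scaled to a common total of counts on genes with TMM, in the order of chicks 18, 19, 21 and 23 for FDMR 6 h and 9, 10, 12 and 13 for FDMR 0 h. Counts on genes numbered 3969595 to 4631032 in FDMR 6 h libraries and 3411316 to 4816425 in FDMR 0 h libraries, so that 1 CPM stood for 3.48 to 4.85 counts in these 8. The labelled tissues were present by their markers. RPE65, the isomerase of the RPE, averaged 615 ± 88.1 CPM at FDMR 6 h and 568 ± 25.3 CPM at FDMR 0 h (SD, n = 4 each). The rod transducin GNAT1 averaged 122 ± 25.3 CPM at FDMR 6 h and 130.0 ± 16.6 CPM at FDMR 0 h, and the endothelial receptor KDR averaged 248 ± 15.9 CPM at FDMR 6 h and 251 ± 20.5 CPM at FDMR 0 h, and none of these markers was called. Other genes of the RPE and rod lists were called, as described below, so these markers speak only for the presence of the tissues.

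One chick of each group stood apart from the rest of its group. On the first principal component of the 8 libraries, which held 37.2% of the variance, FDMR 6 h chick 23 lay at 9.29 while chicks 18, 19 and 21 lay at -19.1, -19.1 and -18.7. FDMR 0 h chick 9 lay at -14.9, while chicks 10, 12 and 13 lay at 26.6, 27.2 and 8.75. This component did not separate the groups. The second component, which held 18.2% of the variance, did. On it FDMR 6 h chicks lay at 7.694, 5.018, 5.686 and 22.75, and FDMR 0 h chicks at -26.6, -4.235, -2.987 and -7.326. With both chicks left out, an alternative chosen after the data were seen, 268 genes were called, 168 higher and 100 lower, and 229 of them were among the 362 described next. Where leaving out these chicks, or any 1 chick, ended the call of a gene named below, that is given beside it, and likewise where leaving out 1 chick moved a list's number of called genes by over 1.5 times.

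A gene was called when edgeR's quasi-likelihood test gave an adjusted p under 0.05 (Benjamini-Hochberg over the 11334 genes). By this measure 362 genes differed (3.19% of those tested), 227 higher at FDMR 6 h (2.0%) and 135 lower (1.19%). Over all genes the median log2 fold change was 0.00028, with 5672 genes above 0 and 5662 below. Most changes were moderate, with a median of 0.59 on the log2 scale among genes called higher and -0.57 among those called lower, while 52 genes were more than 2-fold higher and 24 more than 2-fold lower. The 4 chicks of one group did not overlap the 4 of the other for 348 called genes, and the same held for 969 of all genes tested (8.55%). At FDMR 24 h against the same FDMR 0 h chicks, 127 genes were called (1.12%). FDMR 24 h chick 29 had 1553717 counts on genes, fewer than any FDMR 6 h or FDMR 0 h library. Fewer calls at FDMR 24 h, or a gene not called there, therefore need not mean a smaller change. The 36 gene lists described below held 791 of the genes tested, and 145 of these were called. These lists were chosen with earlier results of these data known, so a share above 3.19% in a list may reflect that choice.

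**Figure D1:**
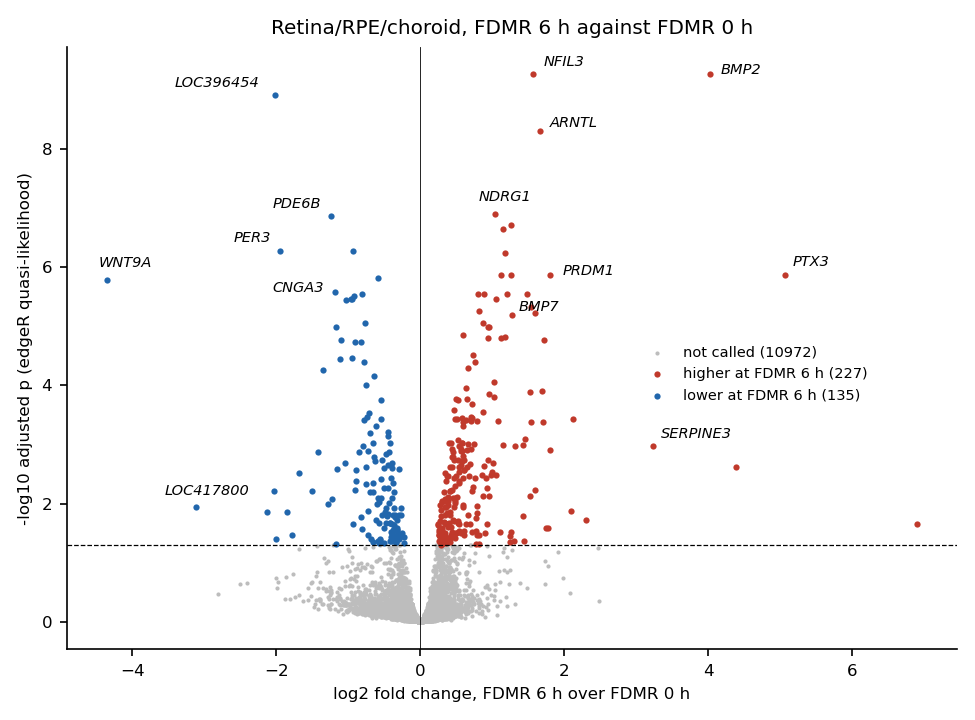
Each point is 1 of 11334 genes, with the log2 fold change of FDMR 6 h over FDMR 0 h on the x axis and -log10 of the adjusted p of edgeR's quasi-likelihood test on the y axis; the dashed line marks an adjusted p of 0.05. The 227 genes higher at FDMR 6 h (red) include PTX3 and BMP2 far to the right, and the 135 lower (blue) include WNT9A far to the left.

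Among called genes with 10 or more counts on average the largest rise was that of PTX3, a soluble pentraxin of innate immunity that also binds matrix. It stood at 25.5, 27.8, 14.4 and 39.6 CPM in FDMR 6 h chicks, against 0.547, 0.575, 0.576 and 1.24 CPM in FDMR 0 h chicks. Every FDMR 6 h chick was above every FDMR 0 h chick by more than 10-fold (log2 fold change 5.07, SE 0.46, adjusted p = 1.33e-06). At FDMR 24 h PTX3 averaged 24.3 ± 2.57 CPM and in No-Lens controls 3.19 ± 2.15 CPM (SD, n = 4 each). SERPINE3, of the serpin family of protease inhibitors, had 15.7, 13.9, 12.1 and 13.3 CPM at FDMR 6 h and 0.821, 1.44, 2.3 and 1.24 CPM at FDMR 0 h. The groups lay well apart for this gene too (log2 fold change 3.23, SE 0.53, adjusted p = 0.00107), and it was also called higher at FDMR 24 h against FDMR 0 h (log2 fold change 3.54). PTX3 and SERPINE3 averaged only 3 and 5.5 counts at FDMR 0 h, so the sizes of these rises are uncertain.

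Bone morphogenetic proteins (BMPs) are secreted ligands of the TGF-beta family that act through receptor kinases and SMAD proteins, and several are made by the chick RPE. BMP2 had 59.1, 68.3, 79 and 66.8 CPM at FDMR 6 h, against 3.28, 3.45, 6.91 and 3.3 CPM at FDMR 0 h. All FDMR 6 h chicks were far above all FDMR 0 h chicks (log2 fold change 4.02, SE 0.20, adjusted p = 5.43e-10), and No-Lens controls, at 17.5 ± 3.49 CPM, lay between. BMP7 had 381, 473, 579 and 559 CPM at FDMR 6 h, against 219, 221, 226 and 202 CPM at FDMR 0 h. Its FDMR 6 h chicks were spread more widely than its FDMR 0 h chicks but all stayed above them (log2 fold change 1.20, SE 0.12, adjusted p = 2.87e-06). BMP4 had 14.9, 14.1, 19 and 33.8 CPM at FDMR 6 h and 3.28, 5.75, 7.49 and 7.64 CPM at FDMR 0 h, with the highest value in chick 23. The BMP4 call (log2 fold change 1.75, SE 0.42, adjusted p = 0.0256) was lost without chick 21, 23, 9, 10 or 12 (adjusted p = 0.0512 to 0.107), and without chicks 23 and 9 together its log2 fold change was 1.19 (adjusted p = 0.18). With all chicks kept, limma-voom did not call BMP4. At FDMR 24 h against FDMR 0 h all 3 ligands were called higher, with log2 fold changes of 3.55 for BMP2, 1.11 for BMP7 and 1.82 for BMP4.

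Not every BMP ligand rose. BMP3, a family member known to oppose the others, fell to 2.7, 2.78, 1.8 and 1.6 CPM at FDMR 6 h, against 9.3, 4.89, 9.79 and 5.16 CPM at FDMR 0 h (log2 fold change -1.68, SE 0.31, adjusted p = 0.00303). These levels rested on few counts. CHRDL1, a secreted BMP antagonist, fell to 145 ± 7.39 CPM at FDMR 6 h, against 212 ± 23.5 CPM at FDMR 0 h (SD, n = 4 each; log2 fold change -0.55, SE 0.08, adjusted p = 0.000368). ACVR1C, a type I receptor for activin and nodal, rose to 55.1 ± 7.17 CPM at FDMR 6 h, against 33.8 ± 3.34 CPM at FDMR 0 h (log2 fold change 0.71, SE 0.12, adjusted p = 0.0012). In all, 6 of the 41 tested genes of BMP and TGF-beta signalling were higher and 2 lower (19.5% called), and their median log2 fold change was 0.11. The BMP target ID3 and the inhibitory SMAD6 stood at 0.65 and 0.61 on the log2 scale without passing the test (adjusted p = 0.143 and 0.07). ID2, another member of the list, was called higher. The ID2 call was lost without chick 18, 19, 23, 9, 10 or 12 (adjusted p = 0.0517 to 0.0764) and without chicks 23 and 9 (0.125).

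**Figure D2:**
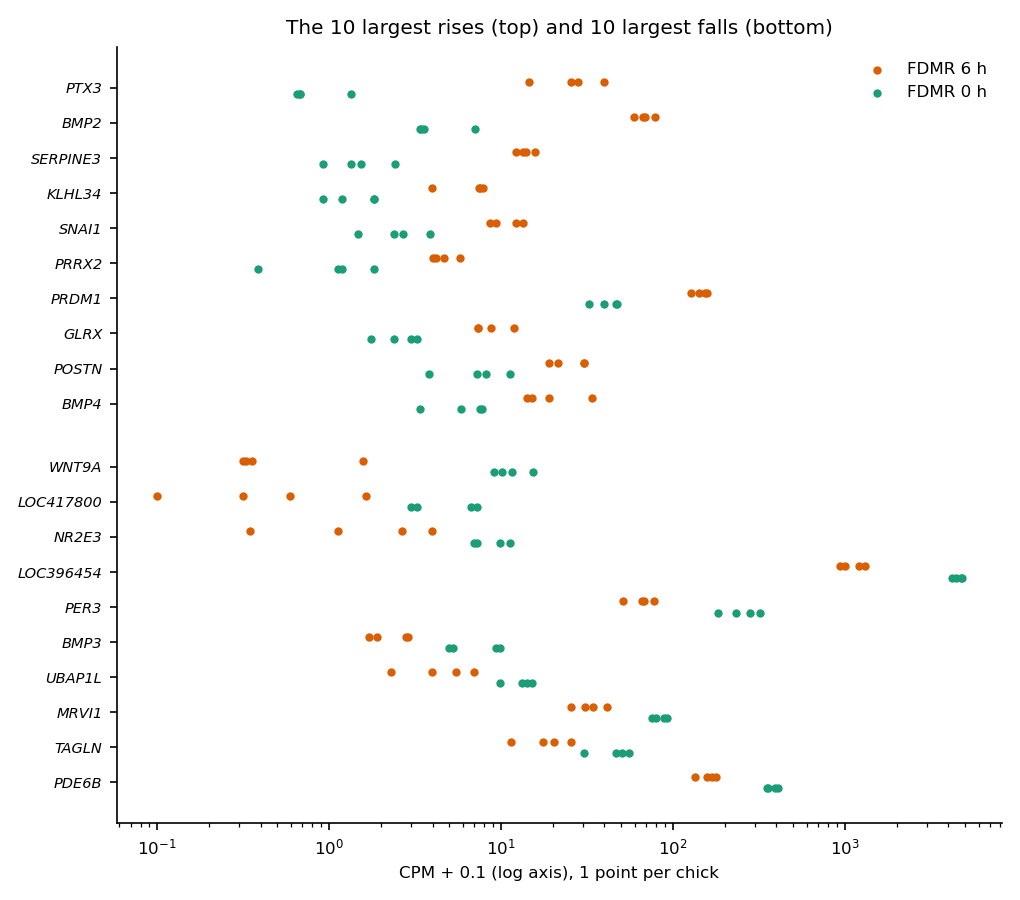
Each point is 1 chick, for the 10 genes with the largest rise (top) and the 10 with the largest fall (bottom) among called genes with a symbol, at least 10 counts on average and no overlap between groups, with CPM plus 0.1 on a log axis and FDMR 6 h (orange) drawn above FDMR 0 h (green). WNT9A stands in FDMR 6 h chick 18 at 1.47 CPM, apart from the other 3 chicks of its group, which averaged only 2.25 counts with chick 18 included.

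WNT9A, a secreted Wnt ligand, had the deepest fall of any called gene. It stood at 1.47, 0.214, 0.257 and 0.229 CPM at FDMR 6 h, against 9.03, 10.1, 15.3 and 11.6 CPM at FDMR 0 h, and No-Lens controls averaged 2.94 ± 0.488 CPM. Chicks 19, 21 and 23 were close to 0, chick 18 was higher, and all 4 lay below every FDMR 0 h chick (log2 fold change -4.35, SE 0.40, adjusted p = 1.64e-06). FDMR 6 h chicks averaged only 2.25 counts of WNT9A, so the size of the fall and the place of chick 18 are uncertain. At FDMR 24 h it was still called lower than at FDMR 0 h (log2 fold change -2.63). Of the 33 tested Wnt ligands, receptors and antagonists, 2 more were called, both higher at FDMR 6 h (9.09% called in all, median 0.04). NLK, a kinase that restrains Wnt target transcription, averaged 214 ± 12.3 CPM at FDMR 6 h and 151 ± 5.4 CPM at FDMR 0 h (SD, n = 4 each; log2 fold change 0.50, SE 0.07, adjusted p = 0.000167). NKD1, an antagonist that Wnt signalling itself induces, averaged 17.6 ± 1.68 CPM at FDMR 6 h and 10.2 ± 1.94 CPM at FDMR 0 h (log2 fold change 0.77, SE 0.18, adjusted p = 0.0176), a call that was lost without chick 18, 21, 9, 10 or 12 (0.0523 to 0.0696) and without chicks 23 and 9 together (0.0839).

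GLRX, KLHL34, LOC417800 and UBAP1L, also among the largest changes, belonged to none of the lists. GLRX, the thiol reductase glutaredoxin, rose to 11.8, 7.28, 7.2 and 8.69 CPM at FDMR 6 h, against 1.64, 3.16, 2.88 and 2.27 CPM at FDMR 0 h (log2 fold change 1.81, SE 0.30, adjusted p = 0.00125). KLHL34, of the kelch-like family, had 7.35, 7.5, 7.72 and 3.89 CPM at FDMR 6 h and 1.09, 1.73, 1.73 and 0.826 CPM at FDMR 0 h, with chick 23 nearest to FDMR 0 h. Its call (log2 fold change 2.31, SE 0.54, adjusted p = 0.019) was lost without chick 18, 19, 21, 9 or 13 (adjusted p = 0.0519 to 0.0806), and at FDMR 24 h its log2 fold change against FDMR 0 h was -0.26. LOC417800, annotated as a prolactin-like protein, had 0.49, 0.214, 1.54 and 0 CPM at FDMR 6 h, against 6.57, 7.19, 3.17 and 2.89 CPM at FDMR 0 h. It rested on few counts, and the call (log2 fold change -3.12, SE 0.68, adjusted p = 0.0116) was lost without chick 19 (adjusted p = 0.0536) and without chicks 23 and 9 (0.0769). UBAP1L, named for its likeness to a ubiquitin-binding protein, fell to 2.21, 5.36, 3.86 and 6.86 CPM at FDMR 6 h, against 13.1, 9.78, 14.1 and 15.1 CPM at FDMR 0 h (log2 fold change -1.50, SE 0.30, adjusted p = 0.00612).

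Of 42 tested connective tissue genes 9 were higher at FDMR 6 h and 2 lower (26.2% called, against 3.19% of all genes, median 0.03 on the log2 scale). SULF1, an extracellular sulfatase that edits heparan sulfate, had 77.7, 73.7, 99.5 and 81.6 CPM at FDMR 6 h, against 54.2, 57.5, 46.1 and 54.9 CPM at FDMR 0 h (log2 fold change 0.64, SE 0.10, adjusted p = 0.000382). PDGFRA, a growth factor receptor of fibroblasts, had 108, 110.1, 95.2 and 119.6 CPM at FDMR 6 h, against 71.2, 68.2, 61.9 and 69 CPM at FDMR 0 h (log2 fold change 0.68, SE 0.13, adjusted p = 0.00342). ADAMTS1, a secreted metalloprotease, had 106, 111, 92.1 and 126 CPM at FDMR 6 h, against 56.1, 71, 68.8 and 44.4 CPM at FDMR 0 h (log2 fold change 0.87, SE 0.16, adjusted p = 0.00327). These 3 genes separated the groups and were also called higher at FDMR 24 h, with log2 fold changes against FDMR 0 h of 0.82, 0.83 and 1.0. PTN, the growth factor pleiotrophin, averaged 160.2 ± 19.7 CPM at FDMR 6 h and 106 ± 7.18 CPM at FDMR 0 h (SD, n = 4 each; log2 fold change 0.59, SE 0.09, adjusted p = 0.000477) and was not called at FDMR 24 h (0.17). Summed over the list, levels overlapped between FDMR 6 h (4771 to 5637 CPM) and FDMR 0 h (4492 to 5331 CPM).

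Some calls on connective tissue genes were lost when chicks were left out. POSTN, the matricellular protein periostin, had 18.9, 30.4, 21.4 and 30.2 CPM at FDMR 6 h and 7.12, 8.05, 11.2 and 3.72 CPM at FDMR 0 h. The POSTN call (log2 fold change 1.78, SE 0.43, adjusted p = 0.0263) was lost without chick 19, 23, 9, 10 or 13 (adjusted p = 0.0648 to 0.108) and without chicks 23 and 9 together (0.12). With all chicks kept, limma-voom did not call POSTN. PRRX2, a homeobox gene of mesenchyme, had 3.92, 4.07, 5.66 and 4.57 CPM at FDMR 6 h and 1.09, 0.288, 1.73 and 1.03 CPM at FDMR 0 h. Its call (log2 fold change 2.10, SE 0.47, adjusted p = 0.0132) was lost without chick 10 (adjusted p = 0.0519) and without chicks 23 and 9 (0.0618). MGP, called higher, was not called without chick 21, 23, 9, 10, 12 or 13 (adjusted p = 0.0556 to 0.182). PAPPA, also called higher, was not called without chick 18, 23, 9, 10 or 12 (0.0575 to 0.091). MXRA8, called lower, was not called without chick 18, 19, 21, 9, 10, 12 or 13 (0.0579 to 0.15). Without chicks 23 and 9 together none of these was called (0.262, 0.139 and 0.0609). The list held 7 called genes without chick 9, 6 without chick 10 and 6 without chicks 23 and 9, in place of 11.

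Immediate early and growth response genes gave 4 higher and 3 lower of 26 tested (26.9% called, median -0.01). SNAI1, a zinc-finger repressor that TGF-beta family signals induce in mesenchyme, rose to 8.58, 13.3, 9.26 and 12.1 CPM at FDMR 6 h, against 1.37, 2.59, 3.74 and 2.27 CPM at FDMR 0 h (log2 fold change 2.12, SE 0.31, adjusted p = 0.000371). CTGF, a secreted protein of matrix repair that TGF-beta induces, rose to 218, 224, 245 and 242 CPM at FDMR 6 h, against 107, 116, 86.1 and 99.8 CPM at FDMR 0 h (log2 fold change 1.18, SE 0.13, adjusted p = 1.52e-05). Both genes separated the groups completely, and both were also called higher at FDMR 24 h against FDMR 0 h, with log2 fold changes of 1.87 and 1.03. SIK1, a kinase that cyclic AMP induces, averaged 149.8 ± 16.4 CPM at FDMR 6 h and 89.7 ± 15.2 CPM at FDMR 0 h (SD, n = 4 each; log2 fold change 0.74, SE 0.12, adjusted p = 0.000972). Those called lower were RHOB, SGK1 and PER2, which the clock repressor list also holds (log2 fold change -0.81, adjusted p = 2.87e-06). The RHOB call was lost without chick 19, 21, 23, 10, 12 or 13 (0.057 to 0.108) and without chicks 23 and 9 (0.0717). That of SGK1 was lost without chick 23, 10 or 12 (0.0597 to 0.0675) and without chicks 23 and 9 (0.109). The classical early genes FOS and EGR1 stood at -0.61 and -0.44 and were not called. Without chick 10 or chick 12, and likewise without chicks 23 and 9, the list held 4 called genes in place of 7. Genes of the list called lower numbered 1 in place of 3 without chick 23, 10 or 12, and without chicks 23 and 9.

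The called clock activators and output factors were higher at FDMR 6 h. ARNTL, the activator also called BMAL1, had 200.5, 192, 203 and 200.3 CPM at FDMR 6 h, against 67.3, 59.2, 61.6 and 63 CPM at FDMR 0 h. The spread within each group was a small part of the distance between them (log2 fold change 1.66, SE 0.10, adjusted p = 4.93e-09). NFIL3, a repressor at the D-box elements of clock output genes, had 150.2, 154, 183 and 161 CPM at FDMR 6 h and 58.8, 49.5, 56.5 and 54.5 CPM at FDMR 0 h. Its groups were as clearly apart (log2 fold change 1.56, SE 0.08, adjusted p = 5.43e-10). NPAS2, a partner of ARNTL, had 97.3, 100.0, 119.8 and 125 CPM at FDMR 6 h and 59.1, 65.6, 59.6 and 56.4 CPM at FDMR 0 h (log2 fold change 0.88, SE 0.09, adjusted p = 8.62e-06). CLOCK, the other partner, stood at 0.40 on the log2 scale and did not pass the test (adjusted p = 0.1), and the D-box activators HLF and TEF stood at -0.31 and -0.09. Thus 3 of 8 tested activators and output factors were higher and none lower (37.5% called, median 0.22). A fit of the 8 libraries alone called 5 of them, 4 higher and 1 lower.

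On the repressor side 4 genes were called lower. PER3, a period gene, had 65.9, 77.3, 68.2 and 51.5 CPM at FDMR 6 h, against 323, 279.5, 234 and 184 CPM at FDMR 0 h. Even the lowest FDMR 0 h chick was more than 2-fold above the highest FDMR 6 h chick (log2 fold change -1.95, SE 0.16, adjusted p = 5.25e-07). PER2, the other period gene tested here, had 532, 588, 623 and 508 CPM at FDMR 6 h, against 1023, 998, 1033 and 900.2 CPM at FDMR 0 h (log2 fold change -0.81, SE 0.08, adjusted p = 2.87e-06). NR1D2, the nuclear receptor REV-ERB beta that represses ARNTL, had 245, 289, 262 and 238 CPM at FDMR 6 h, against 476, 483, 398 and 384 CPM at FDMR 0 h (log2 fold change -0.75, SE 0.10, adjusted p = 0.0001). The groups were separate in each of these genes. CRY2, a cryptochrome, had 362, 369.7, 339 and 363 CPM at FDMR 6 h, against 522, 474, 483 and 485 CPM at FDMR 0 h (log2 fold change -0.45, SE 0.07, adjusted p = 0.00071), while CRY1 stood at 0.24 without passing the test (adjusted p = 0.0837). FBXL21, a ubiquitin ligase subunit that acts on cryptochromes, was the 1 called member on the higher side, with 108, 106, 122 and 114 CPM at FDMR 6 h and 77.2, 70.5, 74.6 and 65.7 CPM at FDMR 0 h (log2 fold change 0.64, SE 0.09, adjusted p = 0.00017). Of 10 tested repressors, kinases and ligases 4 were lower and 1 higher (50.0% called, median -0.29). These 8 clock calls held whichever 1 chick was left out, and without chicks 23 and 9, and without chick 9 alone 2 genes of the repressor list were called higher.

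At the hour of FDMR 0 h on the next day, clock genes lay nearer to FDMR 0 h. ARNTL averaged 94.7 ± 10.8 CPM at FDMR 24 h (SD, n = 4; log2 fold change 0.58 against FDMR 0 h, adjusted p = 0.00636). PER3 stood at -0.89 (adjusted p = 0.00581), PER2 at -0.36 (adjusted p = 0.0237) and NR1D2 at -0.48 (adjusted p = 0.0182) in that comparison. NFIL3, NPAS2, FBXL21 and CRY2 were not called there, with log2 fold changes of 0.28, 0.05, 0.08 and -0.22. The difference between the FDMR 6 h and FDMR 24 h effects was not tested.

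**Figure D3:**
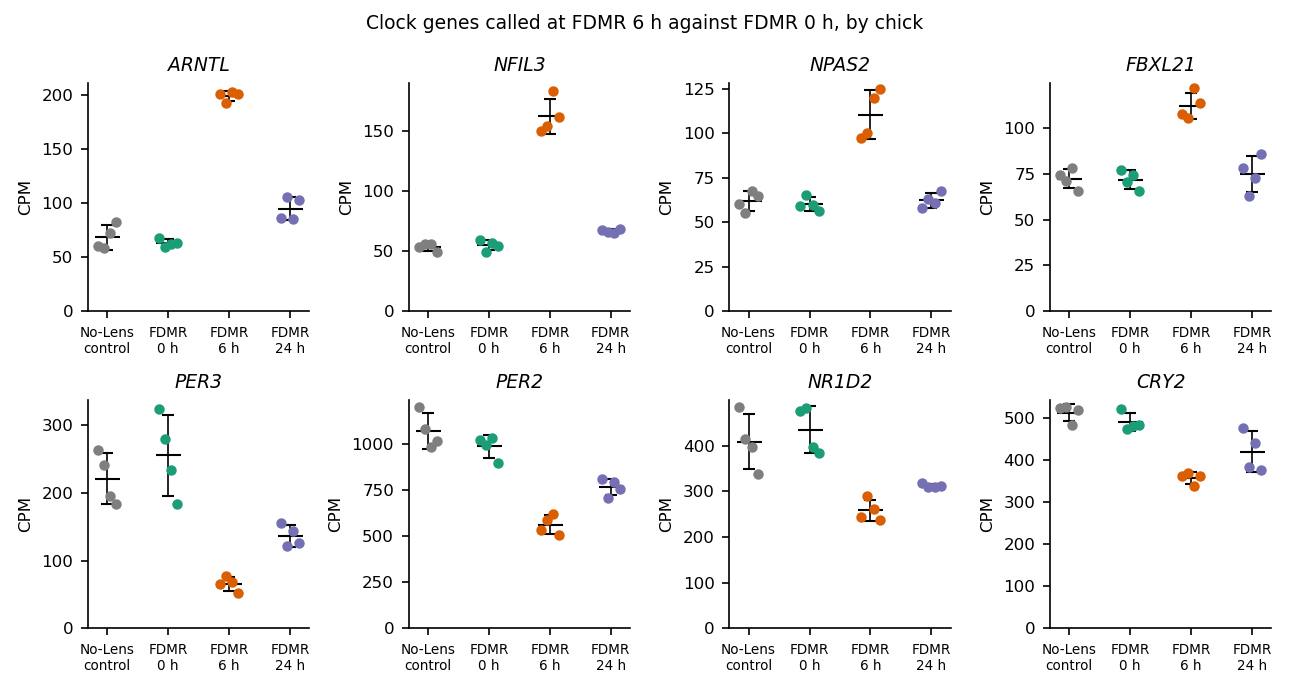
Each point is 1 chick, with CPM on the y axis from 0 and the 4 groups on the x axis, baseline first and then in order of time; the dash and bar are the mean and SD (n = 4). ARNTL, NFIL3, NPAS2 and FBXL21 stand highest at FDMR 6 h and PER3, PER2, NR1D2 and CRY2 lowest there, with ARNTL at 199 ± 4.64 CPM at FDMR 6 h and 62.8 ± 3.39 CPM at FDMR 0 h.

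Melatonin is made from tryptophan by TPH1, DDC, AANAT and ASMT in chick photoreceptors, mostly at night. TPH1, the hydroxylase that starts the path, rose to 32.1, 27.8, 25.7 and 26.1 CPM at FDMR 6 h, against 8.21, 10.3, 8.35 and 7.85 CPM at FDMR 0 h (log2 fold change 1.69, SE 0.23, adjusted p = 0.000125). ASMT, the methyltransferase that ends it, fell to 32.4, 36.6, 43.5 and 34.3 CPM at FDMR 6 h, against 58.8, 59.5, 62.8 and 56 CPM at FDMR 0 h (log2 fold change -0.69, SE 0.11, adjusted p = 0.000648). The groups did not overlap for either enzyme, and the enzymes moved in opposite directions. AANAT, the enzyme that sets the nightly rate, averaged 6.15 ± 2.62 CPM at FDMR 6 h and 14.7 ± 8.16 CPM at FDMR 0 h, with overlapping chicks, and was not called (adjusted p = 0.289). OPN4, a melanopsin, had 131, 149, 166 and 168 CPM at FDMR 6 h, against 110.0, 95.5, 112 and 91.9 CPM at FDMR 0 h. The OPN4 call (log2 fold change 0.59, SE 0.13, adjusted p = 0.0115) was lost without chick 13 (adjusted p = 0.0515) and without chicks 23 and 9 (0.0532). In this list of 9 tested genes 2 were higher and 1 lower (33.3% called, median 0.02).

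Cone phototransduction had the largest share of called genes of the 36 lists. Of its 20 tested genes 12 were lower at FDMR 6 h and 2 higher (70.0% called, against 3.19% of all genes), with -0.68 as their median on the log2 scale. All 36 lists were chosen with earlier results of these data known. The study itself had reported its cone gene set as lower in this comparison. The rank and share of this list, like those of the others, may therefore reflect that choice. Its called members include SLC24A1, an exchanger of rods, on the higher side and LRAT, which the RPE list also holds, on the lower side. The summed level of the list was 7712 to 8502 CPM in FDMR 6 h chicks and 10430 to 11450 CPM in FDMR 0 h chicks. The steps of the cascade did not all move alike. GNAT2, the cone transducin, averaged 489 ± 67.2 CPM at FDMR 6 h and 484 ± 57.9 CPM at FDMR 0 h (SD, n = 4 each), with overlapping chicks and a log2 fold change of 0.01 (adjusted p = 0.986). PDE6C, the catalytic subunit of the cone phosphodiesterase, had 395, 418, 495 and 374 CPM at FDMR 6 h, against 734, 788, 677 and 660.4 CPM at FDMR 0 h (log2 fold change -0.77, SE 0.08, adjusted p = 8.62e-06). PDE6H, its inhibitory subunit, stood at -0.25 and was not called (adjusted p = 0.184).

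The cone channel is built from CNGA3 and CNGB3. CNGA3 fell to 84.3, 89.1, 83.1 and 84.6 CPM at FDMR 6 h, against 220.3, 199, 159 and 199 CPM at FDMR 0 h (log2 fold change -1.19, SE 0.11, adjusted p = 2.66e-06). CNGB3 fell to 139, 148, 154 and 138 CPM at FDMR 6 h, against 197, 174, 208 and 189 CPM at FDMR 0 h (log2 fold change -0.41, SE 0.08, adjusted p = 0.00366). Both subunits were lower in every FDMR 6 h chick, CNGA3 by the wider margin. The exchangers that carry calcium out of the outer segment did not move together. SLC24A4, an exchanger of cones in the mouse, fell to 331, 314, 344 and 288 CPM at FDMR 6 h, against 678, 671, 652 and 606 CPM at FDMR 0 h (log2 fold change -1.03, SE 0.10, adjusted p = 3.59e-06). SLC24A2, another cone exchanger, fell to 174 ± 4.5 CPM at FDMR 6 h, against 234 ± 16.4 CPM at FDMR 0 h (SD, n = 4 each; log2 fold change -0.43, SE 0.07, adjusted p = 0.00096). SLC24A1, the exchanger of rods, rose to 147, 121, 129 and 129 CPM at FDMR 6 h, against 53.6, 37.7, 63.4 and 80.5 CPM at FDMR 0 h (log2 fold change 1.15, SE 0.19, adjusted p = 0.00104).

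Several proteins that end the light response were lower. ARR3, the cone arrestin, had 566, 664, 658 and 761 CPM at FDMR 6 h, against 1348, 1447, 1248 and 1663 CPM at FDMR 0 h (log2 fold change -1.11, SE 0.13, adjusted p = 1.71e-05). GRK7, the cone opsin kinase, had 157, 157, 153 and 122 CPM at FDMR 6 h, against 326, 273, 255 and 291 CPM at FDMR 0 h (log2 fold change -0.96, SE 0.10, adjusted p = 3.4e-06). RGS9BP, the anchor of the complex that speeds transducin shutoff, had 559.8, 610.0, 625 and 540.4 CPM at FDMR 6 h, against 1221, 1086, 1090 and 1046 CPM at FDMR 0 h (log2 fold change -0.93, SE 0.08, adjusted p = 5.25e-07). In each of these 3 genes the lowest FDMR 0 h chick stood well above the highest FDMR 6 h chick. RGS9, the catalytic part of that complex, had 218, 220.0, 217 and 226 CPM at FDMR 6 h and 304, 291, 258 and 254 CPM at FDMR 0 h, a smaller gap. Its call (log2 fold change -0.33, SE 0.08, adjusted p = 0.019) was lost without chick 18, 19, 21, 9 or 10 (0.0545 to 0.0769) and without chicks 23 and 9 (0.0964).

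Calcium feedback on cyclic GMP synthesis runs through guanylate cyclase activating proteins. GUCA1A had 348, 486, 403 and 357 CPM at FDMR 6 h, against 731, 932, 774 and 654 CPM at FDMR 0 h (log2 fold change -0.95, SE 0.12, adjusted p = 3.45e-05). GUCA1C, another such protein, had 124, 139.6, 161 and 109 CPM at FDMR 6 h, against 238, 223, 204 and 248 CPM at FDMR 0 h (log2 fold change -0.78, SE 0.12, adjusted p = 0.000382). GUCA1B went against both, with 154, 174, 170.0 and 173 CPM at FDMR 6 h and 118, 104, 115 and 142 CPM at FDMR 0 h (log2 fold change 0.48, SE 0.09, adjusted p = 0.00508). In none of the 3 did the chicks of the groups overlap. The cyclase GUCY2F, which these proteins act on, stood at 0.01 (adjusted p = 0.99). LRAT, which esterifies retinol in the visual cycle, fell to 63.7, 62.1, 70.0 and 59.9 CPM at FDMR 6 h, against 140.1, 120.5, 121 and 114 CPM at FDMR 0 h (log2 fold change -0.95, SE 0.10, adjusted p = 3.4e-06).

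At FDMR 24 h against FDMR 0 h, 2 of the 20 cone genes were called lower and none higher, and the median of the list was -0.03. These were CNGA3 (log2 fold change -0.56, adjusted p = 0.015) and RGS9BP (-0.48, adjusted p = 0.00286). ARR3 averaged 1353 ± 145 CPM at FDMR 24 h and 1378 ± 252 CPM in No-Lens controls, beside 1426 ± 177 CPM at FDMR 0 h.

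Rod genes showed no common direction. Of 8 tested, CNGB1 and GNB1 were higher, PDE6B was lower, and the rest, among them the transducin GNAT1 and the arrestin SAG, were not called (37.5% called, median -0.09). CNGB1, a subunit of the rod channel, had 103, 92.1, 106 and 122 CPM at FDMR 6 h, against 26.8, 36.2, 46.4 and 36.5 CPM at FDMR 0 h (log2 fold change 1.54, SE 0.23, adjusted p = 0.000423). PDE6B, a catalytic subunit of the rod phosphodiesterase, had 168, 178, 158 and 134 CPM at FDMR 6 h, against 409, 356, 351 and 393 CPM at FDMR 0 h (log2 fold change -1.24, SE 0.09, adjusted p = 1.38e-07). Both separated the groups by a wide margin, in opposite directions. GNB1, the transducin beta subunit, averaged 1863 ± 131 CPM at FDMR 6 h and 1421 ± 75.4 CPM at FDMR 0 h (SD, n = 4 each; log2 fold change 0.39, SE 0.08, adjusted p = 0.00787). The pooled tissue does not show which cells the GNB1 RNA came from. Of 6 tested opsins, OPN4 and RGR were higher (33.3% called, median 0.05). RGR, an opsin of RPE and glia that regenerates chromophore, had 584, 670.4, 679 and 612 CPM at FDMR 6 h, against 519, 431, 493 and 490.1 CPM at FDMR 0 h (log2 fold change 0.40, SE 0.09, adjusted p = 0.023), a call lost without chick 19, 21, 10, 12 or 13 (0.054 to 0.0988). Hence 1 opsin was called without chick 19, 21, 10 or 12 or without chicks 23 and 9, and 0 without chick 13.

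Among the regulators of photoreceptor genes, a few changed strongly. PRDM1, the repressor BLIMP1 that in the mouse keeps photoreceptor precursors from becoming bipolar cells, had 127, 141, 153 and 158 CPM at FDMR 6 h, against 32.3, 46.9, 47 and 39.9 CPM at FDMR 0 h (log2 fold change 1.81, SE 0.16, adjusted p = 1.33e-06). ESRRB, a nuclear receptor needed for rod survival in the mouse, had 199.8, 171, 183 and 190.3 CPM at FDMR 6 h, against 73.9, 94, 88.4 and 78.7 CPM at FDMR 0 h (log2 fold change 1.15, SE 0.09, adjusted p = 2.23e-07). The groups were far apart for both, and at FDMR 24 h against FDMR 0 h PRDM1 stood at 0.43 (adjusted p = 0.398) and ESRRB at 0.42 (adjusted p = 0.0274). NR2E3, the nuclear receptor that represses cone genes in mammalian rods, had 0.245, 2.57, 1.03 and 3.89 CPM at FDMR 6 h, against 7.12, 6.9, 9.79 and 11.2 CPM at FDMR 0 h. The gene rested on few counts, and its call (log2 fold change -2.13, SE 0.48, adjusted p = 0.0138) was lost without chick 21 or 13 (adjusted p = 0.0518 to 0.0565). MEF2C, a MADS-box factor, averaged 41.1 ± 4.51 CPM at FDMR 6 h and 54.9 ± 3.52 CPM at FDMR 0 h (SD, n = 4 each; log2 fold change -0.42, SE 0.10, adjusted p = 0.0215), a call lost without chick 18, 19, 23, 9, 10 or 13 (0.0517 to 0.0921) and without chicks 23 and 9 (0.0891). In total 2 of 14 tested factors were higher and 2 lower (28.6% called, median -0.34), and without chick 13 2 were called. OTX2, the master regulator of photoreceptor fate, averaged 308 ± 16.8 CPM at FDMR 6 h and 303 ± 27.4 CPM at FDMR 0 h.

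Genes of the outer segment, cilium and interphotoreceptor matrix were called in both directions, 9 higher and 7 lower of 33 tested (48.5% called, median 0.04). LOC396454, the chick gene for purpurin, a secreted retinol-binding protein of photoreceptors, had 1212, 1312, 1008 and 936 CPM at FDMR 6 h, against 4791, 4180, 4424 and 4718 CPM at FDMR 0 h. Every FDMR 0 h chick was more than 3-fold above every FDMR 6 h chick (log2 fold change -2.02, SE 0.11, adjusted p = 1.22e-09), and the gene averaged 3849 ± 475 CPM at FDMR 24 h and 4771 ± 447 CPM in No-Lens controls. CACNA2D4, an accessory subunit of the photoreceptor calcium channel, rose to 343, 325, 334 and 362 CPM at FDMR 6 h, against 133, 137, 140.3 and 157 CPM at FDMR 0 h (log2 fold change 1.26, SE 0.10, adjusted p = 1.89e-07). PPEF2, a phosphatase of photoreceptors, rose to 122, 108, 122 and 128 CPM at FDMR 6 h, against 48.7, 49.2, 47.2 and 53.5 CPM at FDMR 0 h (log2 fold change 1.27, SE 0.13, adjusted p = 6.34e-06). CLUL1, a clusterin-like protein of the retina, rose to 1166, 1163, 1276 and 1171 CPM at FDMR 6 h, against 718, 776, 839 and 844 CPM at FDMR 0 h (log2 fold change 0.59, SE 0.07, adjusted p = 1.4e-05). No FDMR 0 h chick reached the FDMR 6 h range in any of the 3 risers. Other members called higher were ABCA4, the retinoid transporter of the outer segment (0.74 on the log2 scale), and TULP1, a trafficking protein (0.96). Members called lower included CPLX4, a complexin of the photoreceptor synapse (-0.69), and IMPG1, a proteoglycan of the interphotoreceptor matrix (-0.35). The CPLX4 call was lost without chicks 23 and 9 (0.0557) and the IMPG1 call without chick 18, 23, 10 or 13 (0.0521 to 0.0753). The genes of the list called lower numbered 4 in place of 7 without chick 18 or chick 13, and without chicks 23 and 9.

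**Figure D4:**
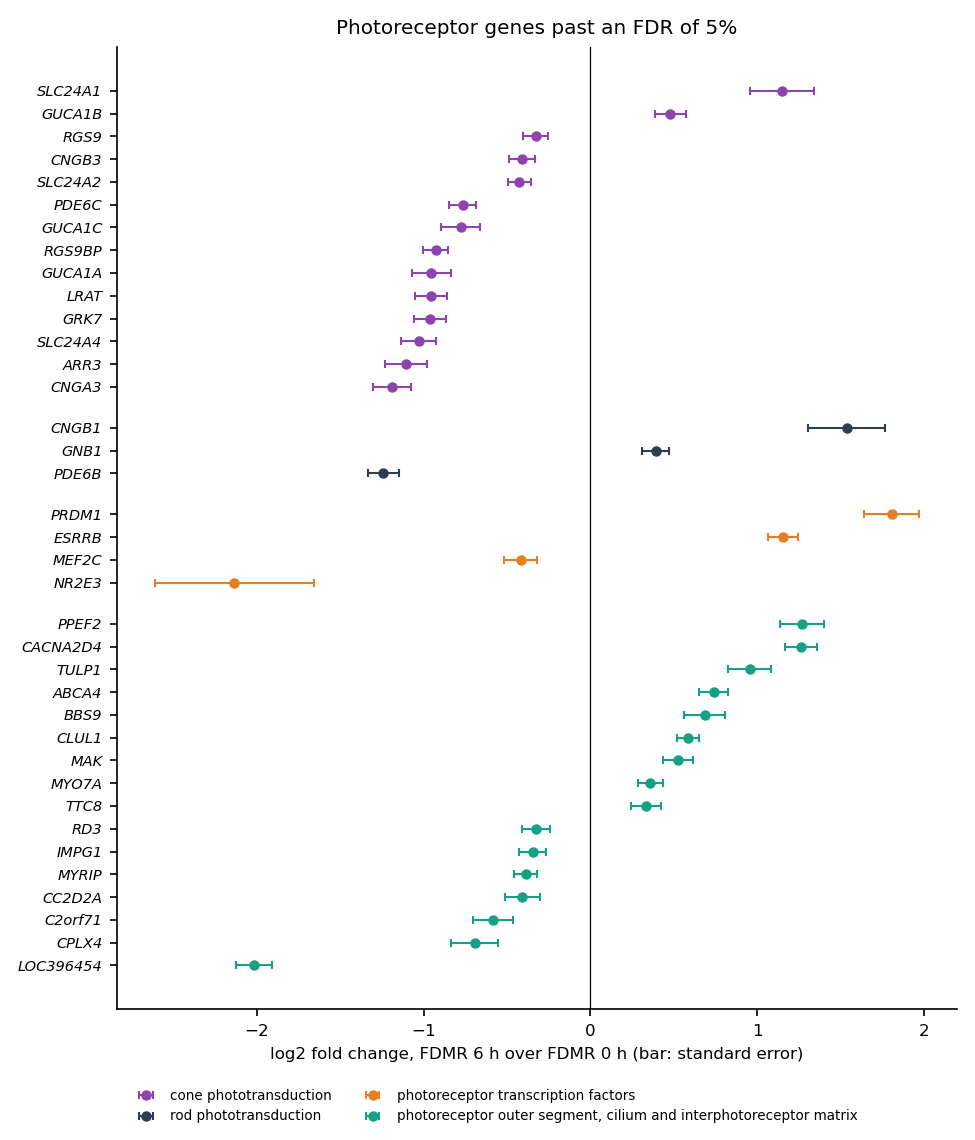
Points are log2 fold changes of FDMR 6 h over FDMR 0 h on the x axis with standard errors as bars, for the called members of 4 photoreceptor lists (colours). Cone phototransduction lies mostly to the left, 12 of 14 called genes, while outer segment and cilium genes lie on both sides, from PPEF2 at 1.27 to LOC396454 at -2.02.

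Of 33 tested genes of folding in the endoplasmic reticulum (ER) and the unfolded protein response 9 were higher and none lower (27.3% called), 29 had a log2 fold change above 0, and the median was 0.15. HSP90B1, the ER form of HSP90, had 802, 929, 749.9 and 761 CPM at FDMR 6 h, against 578, 516, 609.5 and 604 CPM at FDMR 0 h (log2 fold change 0.49, SE 0.09, adjusted p = 0.00337). PDIA4, a disulfide isomerase, had 171, 183, 167 and 144 CPM at FDMR 6 h, against 124, 113, 126 and 124 CPM at FDMR 0 h (log2 fold change 0.45, SE 0.08, adjusted p = 0.00238). Both genes separated the groups, with chick 23 nearest to FDMR 0 h for PDIA4. HYOU1, an exchange factor of the ER, and CRELD2, a secreted ER stress protein, stood at 0.34 and 0.53 on the log2 scale (adjusted p = 0.021 and 0.0215). The HYOU1 call was lost without chick 18, 19, 10 or 12 (0.0626 to 0.0899) and that of CRELD2 without chick 18, 19, 21, 9, 10 or 12 (0.0506 to 0.0897). HSPA5, the central chaperone BiP, averaged 331 ± 13.9 CPM at FDMR 6 h and 266 ± 21 CPM at FDMR 0 h, just past the threshold (log2 fold change 0.31, adjusted p = 0.0474), and was not called without chick 18, 19, 21, 23, 9, 10 or 12 (0.0528 to 0.169) or without chicks 23 and 9 (0.115). The count of the list fell to 2 without chick 18, 10 or 12, to 3 without chick 19, to 4 without chick 21 or 9, and to 5 without chick 23 or without chicks 23 and 9.

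In the cytosol 3 of 32 heat shock proteins and cochaperones were lower and none higher (9.38% called, median 0.00449). ST13, a cochaperone of HSP70, had 272, 264, 308 and 234 CPM at FDMR 6 h, against 372, 347, 377 and 368 CPM at FDMR 0 h (log2 fold change -0.44, SE 0.08, adjusted p = 0.00219). HSF2, a heat shock factor, averaged 88 ± 13.5 CPM at FDMR 6 h and 119 ± 5.05 CPM at FDMR 0 h (SD, n = 4 each; log2 fold change -0.43, SE 0.09, adjusted p = 0.00981), and was not called without chicks 23 and 9 (0.0557). HSPH1, an exchange factor of HSP70, averaged 173 ± 11.2 CPM at FDMR 6 h and 225 ± 13.7 CPM at FDMR 0 h (log2 fold change -0.38, SE 0.09, adjusted p = 0.0159), a call lost without chick 18, 21, 10 or 12 (0.0525 to 0.064) and without chicks 23 and 9 (0.0629). With those chicks left out ST13 was the 1 gene called.

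Of 41 tested genes of fatty acid activation, elongation and glycerolipid synthesis 7 were higher and none lower (17.1% called, median 0.03). DGAT2, which makes triglyceride from diacylglycerol, had 79.9, 73.9, 77.2 and 79.1 CPM at FDMR 6 h, against 32.6, 35.4, 37.4 and 36.8 CPM at FDMR 0 h (log2 fold change 1.12, SE 0.10, adjusted p = 1.33e-06). ELOVL2, the elongase on the way to docosahexaenoic acid, had 289, 303, 317 and 273 CPM at FDMR 6 h, against 199, 172, 181 and 196 CPM at FDMR 0 h (log2 fold change 0.66, SE 0.08, adjusted p = 5.13e-05). The chicks did not overlap for either gene, and at FDMR 24 h against FDMR 0 h DGAT2 stood at 0.19 and ELOVL2 at 0.21, not called. ETNK1, an ethanolamine kinase of phospholipid synthesis, averaged 83.4 ± 7.47 CPM at FDMR 6 h and 55.1 ± 4.57 CPM at FDMR 0 h (SD, n = 4 each; log2 fold change 0.59, SE 0.09, adjusted p = 0.000418). ACSL3, which activates long-chain fatty acids, averaged 258 ± 29.6 CPM at FDMR 6 h and 188 ± 10.8 CPM at FDMR 0 h (log2 fold change 0.46, SE 0.08, adjusted p = 0.00163). Between 6 and 8 genes of the list were called with 1 chick left out, 1 of them lower without chick 13.

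Lipid droplet and fatty acid breakdown genes gave 3 higher and 2 lower of 30 tested (16.7% called, median -0.04). ABCD2, a peroxisomal importer of fatty acids, averaged 150.3 ± 12.2 CPM at FDMR 6 h and 112 ± 10.4 CPM at FDMR 0 h (SD, n = 4 each; log2 fold change 0.42, SE 0.08, adjusted p = 0.00612). CIDEA, a protein of lipid droplets, had 81.4, 78.2, 76.4 and 57.2 CPM at FDMR 6 h and 52, 49.2, 49.5 and 59.3 CPM at FDMR 0 h. Chick 23 lay within the FDMR 0 h range for CIDEA (log2 fold change 0.48, SE 0.10, adjusted p = 0.00907). ECI2, an isomerase of fatty acid oxidation, averaged 43.9 ± 2.57 CPM at FDMR 6 h and 64.4 ± 6.83 CPM at FDMR 0 h (log2 fold change -0.55, SE 0.11, adjusted p = 0.00389), and was not called without chicks 23 and 9 (0.0541). PNPLA2, the triglyceride lipase ATGL, averaged 33.2 ± 2.2 CPM at FDMR 6 h and 44.3 ± 3.23 CPM at FDMR 0 h (log2 fold change -0.42, SE 0.10, adjusted p = 0.0213), a call lost without chick 18, 19, 23, 9 or 12 (0.0535 to 0.0887) and without chicks 23 and 9 (0.126). The list held 3 called genes without chick 18, 23 or 9 and 2 without chicks 23 and 9.

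Cholesterol synthesis gave 2 of 22, both higher (9.09% called, median 0.11). FDFT1, squalene synthase, had 171, 162, 139 and 208 CPM at FDMR 6 h and 141, 130.0, 120.4 and 140.2 CPM at FDMR 0 h. Its groups overlapped, and its call (log2 fold change 0.36, SE 0.09, adjusted p = 0.0463) was lost without chick 18, 19, 23, 9, 10, 12 or 13 (0.0609 to 0.168) and without chicks 23 and 9 (0.131). The list held 0 called genes without chick 18, 10 or 13 or without chicks 23 and 9, and 1 without each other chick.

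In the RPE list 2 of 26 tested genes were higher and 4 lower (23.1% called, median -0.19). KCNJ13, the inward rectifier potassium channel of the RPE's apical membrane, rose to 50.5, 47.8, 55.8 and 52.1 CPM at FDMR 6 h, against 24.4, 19.6, 23.3 and 23.8 CPM at FDMR 0 h (log2 fold change 1.18, SE 0.10, adjusted p = 5.65e-07). KCNQ1, a voltage-gated potassium channel, fell to 9.31, 10.1, 10.8 and 10.8 CPM at FDMR 6 h, against 17.8, 18.4, 15.6 and 17.1 CPM at FDMR 0 h (log2 fold change -0.75, SE 0.15, adjusted p = 0.00459). The groups were apart for both channels. KCNJ13 was also called higher at FDMR 24 h against FDMR 0 h (log2 fold change 0.90, adjusted p = 9.32e-05), and KCNQ1 was not (-0.16). LRAT and RGR, given above, and the transporters SLC4A11 (-0.73) and SLC16A8 (-0.35) made up the rest of the calls. The SLC4A11 call was lost without chick 19, 21, 23, 9, 10, 12 or 13 (0.0512 to 0.135) and without chicks 23 and 9 (0.197), and the SLC16A8 call without chick 18, 19, 21, 9, 12 or 13 (0.0747 to 0.141). The summed level of the list overlapped between FDMR 6 h (4332 to 4874 CPM) and FDMR 0 h (4812 to 5062 CPM), and without chick 19, 21, 12 or 13 it held 3 called genes.

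ALDH1A2, an enzyme that makes retinoic acid and is abundant in the chick choroid, rose to 264, 368, 269 and 282 CPM at FDMR 6 h, against 101, 96, 114 and 96.4 CPM at FDMR 0 h (log2 fold change 1.54, SE 0.16, adjusted p = 4.66e-06). Every FDMR 6 h chick was more than 2-fold above every FDMR 0 h chick, and No-Lens controls averaged 168 ± 41.9 CPM and FDMR 24 h chicks 338 ± 60.5 CPM (SD, n = 4 each). It was the 1 gene called of 21 tested genes of retinoic acid metabolism and reception (4.76%, median 0.06). CYP26A1, which breaks retinoic acid down, averaged 6.45 ± 1.71 CPM at FDMR 6 h and 3.03 ± 1.56 CPM at FDMR 0 h and did not pass the test (adjusted p = 0.233). Without chick 9, 2 genes of the list were called. DESeq2 and edgeR's likelihood ratio test called 3, and limma-voom and a fit of the 8 libraries alone called 2.

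Smooth muscle and pericyte genes, which mark vessels and the non-vascular muscle of the choroid, gave 6 lower and 1 higher of 22 tested (31.8% called, median -0.30). Their summed level was 1685 to 2130 CPM in FDMR 6 h chicks and 2131 to 2618 CPM in FDMR 0 h chicks, ranges that met without overlapping. ACTA2, smooth muscle actin, had 187, 239.5, 121 and 212 CPM at FDMR 6 h, against 435, 369, 400.4 and 489 CPM at FDMR 0 h (log2 fold change -1.15, SE 0.21, adjusted p = 0.00258). MRVI1, a substrate of cyclic GMP kinase that limits calcium release, had 34.3, 41.1, 30.6 and 25.4 CPM at FDMR 6 h, against 89.2, 75.1, 79.8 and 92.5 CPM at FDMR 0 h (log2 fold change -1.36, SE 0.17, adjusted p = 5.45e-05). The groups were separate for both, and at FDMR 24 h against FDMR 0 h both were called lower, at -1.0 and -1.0 on the log2 scale. TAGLN, an actin-binding protein of contractile cells, had 17.4, 20.4, 11.3 and 25.6 CPM at FDMR 6 h, against 30.4, 50.6, 55.3 and 46.9 CPM at FDMR 0 h (log2 fold change -1.28, SE 0.28, adjusted p = 0.01). RASL12, a RAS-like GTPase, had 1.23, 0.642, 0.772 and 0.915 CPM at FDMR 6 h and 3.56, 4.6, 3.74 and 3.1 CPM at FDMR 0 h, under 10 counts on average (log2 fold change -2.04, SE 0.41, adjusted p = 0.00608). The others called lower were KCNMB1, also under 10 counts on average, and CSRP1. The KCNMB1 call was lost without chick 18, 21, 23, 9, 10, 12 or 13 (0.0625 to 0.128) and without chicks 23 and 9 (0.16). That of CSRP1 was lost without chick 18, 19, 21, 10, 12 or 13 (0.0509 to 0.0909). MYH11, the smooth muscle myosin, and its kinase MYLK stood at -0.33 and -0.27, overlapped between groups and were not called. PDGFRB, a receptor of pericytes, was the member called higher (0.78, adjusted p = 0.0478), with overlapping chicks. Its call was lost without chick 18, 19, 23, 9, 10 or 12 (0.055 to 0.175) and without chicks 23 and 9 (0.229), and limma-voom called 0 genes of the list higher. Actin genes are nearly alike in sequence, and the study counted only reads that mapped uniquely to a gene. Reads that fit several actin genes may therefore be missing from these counts. Whether the lower summed level had a part in the other changes was not tested. Without chick 18, 10 or 12 the list held 4 called genes, and at an FDR of 1% 3 of its genes were called lower in place of 6.

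Markers of other cells that the eyecup can hold gave no calls by edgeR's quasi-likelihood test. These were 20 endothelial genes, 16 leukocyte genes, 6 red blood cell genes and 3 lens genes, of which 4, 1, 1 and 1 had an unadjusted p under 0.05. With 3.19% of all genes called, no call in lists this short says little about these cells. DESeq2 and limma-voom called 0 in each, and edgeR's likelihood ratio test called 1 red blood cell gene. A single endothelial gene was called without chick 12, and a single red blood cell gene without chick 23. Summed levels were 1130 to 1501 CPM at FDMR 6 h and 1132 to 1510 CPM at FDMR 0 h for endothelium, 256 to 278 CPM at FDMR 6 h and 235 to 271 CPM at FDMR 0 h for leukocytes, and 18.5 to 34.1 CPM at FDMR 6 h and 11.2 to 23.9 CPM at FDMR 0 h for red blood cells, all with overlapping chicks. The globin genes HBE, HBG1 and HBZ and the lens crystallin CRYBA2 had 0 counts in all 8 libraries. Of 16 striated muscle genes 2 were higher and 1 lower (18.8% called, median 0.08). These were ASB5, a ubiquitin ligase subunit (0.57 on the log2 scale, adjusted p = 0.00117), ACTN2, a sarcomeric actinin (0.36, 0.00412), and SYNPO2L, an actin-associated protein (-0.91, 0.00591). The summed level of the striated muscle list was 454.5 to 525.2 CPM at FDMR 6 h and 409.9 to 431.9 CPM at FDMR 0 h, without overlap. One member, the cardiac troponin T gene TNNT2, had 0 counts in all 8.

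Inflammatory and innate immune genes, led by PTX3, gave 8 higher and 2 lower of 38 tested (26.3% called, median 0.10). LAMP3, a lysosomal membrane protein, had 44.6, 41.5, 31.4 and 42.1 CPM at FDMR 6 h, against 14, 14.7, 11.2 and 13 CPM at FDMR 0 h (log2 fold change 1.59, SE 0.17, adjusted p = 5.85e-06). CD82, a tetraspanin of the cell surface, had 165, 161, 134 and 145 CPM at FDMR 6 h, against 56.6, 62.1, 79.5 and 78.5 CPM at FDMR 0 h (log2 fold change 1.13, SE 0.13, adjusted p = 1.59e-05). C7, a complement component of the membrane attack complex, had 55.1, 58.7, 48.6 and 67.2 CPM at FDMR 6 h, against 20.0, 25, 25.6 and 21.5 CPM at FDMR 0 h (log2 fold change 1.32, SE 0.22, adjusted p = 0.00107). All 3 genes separated the groups, and C7 was also called higher at FDMR 24 h (log2 fold change 1.37 against FDMR 0 h), where LAMP3 and CD82 stood at 0.70 and 0.30 without a call. NFKBIA, the inhibitor of NF-kappa B, averaged 20.7 ± 4.08 CPM at FDMR 6 h and 30.7 ± 1.73 CPM at FDMR 0 h (log2 fold change -0.57, adjusted p = 0.0215), a call lost without chick 18, 19, 23 or 13 (0.0525 to 0.0777) and without chicks 23 and 9 (0.106). Without chick 18, 19, 21, 10 or 12 the list held 6 called genes in place of 10. Genes called higher numbered 5 in place of 8 without chick 18, 21, 10 or 12 and in a fit of the 8 libraries alone, and 0 were called lower without chick 19 or 23 or without chicks 23 and 9.

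Hypoxia response genes gave 6 higher and none lower of 29 tested (20.7% called, median 0.20). NDRG1, which low oxygen and many other stresses induce, had 599, 596, 649.9 and 636 CPM at FDMR 6 h, against 278, 297, 339 and 292 CPM at FDMR 0 h (log2 fold change 1.04, SE 0.08, adjusted p = 1.25e-07). It averaged 340.3 ± 35.7 CPM at FDMR 24 h, where its log2 fold change against FDMR 0 h was 0.18 (adjusted p = 0.444). STC2, a secreted glycoprotein, had 32.1, 35.3, 20.3 and 31.3 CPM at FDMR 6 h and 16.4, 11.5, 20.7 and 12 CPM at FDMR 0 h. Chick 21 lay just inside the FDMR 0 h range for STC2 (log2 fold change 0.99, SE 0.19, adjusted p = 0.00333). CITED3, of a family of transcription cofactors, averaged 306 ± 18.4 CPM at FDMR 6 h and 231 ± 7.59 CPM at FDMR 0 h (SD, n = 4 each; log2 fold change 0.41, SE 0.08, adjusted p = 0.00604), and was not called without chicks 23 and 9 (0.0691). The glycolytic enolase ENO2 averaged 3503 ± 250.1 CPM at FDMR 6 h and 2719 ± 306 CPM at FDMR 0 h (log2 fold change 0.37, SE 0.08, adjusted p = 0.0146), a call lost without chick 18, 10 or 12 (0.0558 to 0.066). VEGFA, a target of the hypoxia factor HIF, stood at 0.43 and was not called (adjusted p = 0.0887). The list held 3 called genes without chick 18 or chick 10 and 4 without chicks 23 and 9.

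Peptide genes of inner retinal neurons were among the amacrine and neuropeptide list, of whose 27 tested members 3 were higher and none lower (11.1% called, median 0.04). GCG, the glucagon gene, expressed by amacrine cells of the chick that respond to the sign of defocus, had 41.7, 42.8, 51.7 and 38.6 CPM at FDMR 6 h, against 22.2, 23.3, 21 and 19.8 CPM at FDMR 0 h (log2 fold change 1.02, SE 0.13, adjusted p = 8.59e-05). VIP, vasoactive intestinal peptide, had 17.6, 22.9, 20.3 and 20.8 CPM at FDMR 6 h, against 12, 11.5, 9.51 and 10.1 CPM at FDMR 0 h (log2 fold change 0.92, SE 0.18, adjusted p = 0.00537). No chick of one group reached the other for either gene, and No-Lens controls averaged 31 ± 3.63 CPM for GCG and 13.3 ± 2.66 CPM for VIP (SD, n = 4 each). At FDMR 24 h against FDMR 0 h both were called higher, with log2 fold changes of 1.13 and 0.88. CHGA, a granin of secretory vesicles, had 804, 996, 967 and 936 CPM at FDMR 6 h, against 647, 641, 640.3 and 725 CPM at FDMR 0 h (log2 fold change 0.48, SE 0.10, adjusted p = 0.00974), not called without chicks 23 and 9 (0.0628), where the list held 2 called genes.

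Lists of other retinal cell types held 1 call or none, while 3.19% of all genes were called. With 13 to 17 genes each, they are too short to tell such counts from that share. None of 17 Mueller glia genes and none of 17 ganglion cell genes was called by edgeR, DESeq2 or limma-voom (2 and 2 at an unadjusted p under 0.05), and 13 of the ganglion cell genes lay below 0. Without chick 10 a single Mueller glia gene was called. RGS7, a regulator of G protein signalling in bipolar cells, was the 1 called of 15 bipolar genes (6.67%; log2 fold change 0.33, SE 0.08, adjusted p = 0.0368), lost without chick 19, 21, 23, 9, 12 or 13 (0.0648 to 0.141) and without chicks 23 and 9 (0.108). GJD2, the gap junction protein connexin 36, was the 1 called of 13 genes in the horizontal cell list (7.69%; log2 fold change 0.38, SE 0.09, adjusted p = 0.023), lost without chick 18, 19, 21, 10 or 12 (0.0509 to 0.103). The pooled tissue does not show which cells this GJD2 RNA came from. None of 57 nuclear genes of the respiratory chain was called by edgeR, DESeq2 or limma-voom (1 at an unadjusted p under 0.05), 42 of them below 0 (median -0.06), and none of 12 mitochondrially encoded genes by any of these tools (0 at an unadjusted p under 0.05), all of them above 0 (median 0.14). Summed levels of both lists overlapped between groups. They were 4143 to 4501 CPM at FDMR 6 h and 4301 to 4712 CPM at FDMR 0 h for nuclear genes. For mitochondrially encoded genes they were 39420 to 51880 CPM at FDMR 6 h and 37260 to 44540 CPM at FDMR 0 h.

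The thyroid hormone list gave 1 higher and 1 lower of 10 (20.0% called, median -0.09). DIO2, the deiodinase that makes active hormone, had 28.4, 22.9, 27.5 and 22.9 CPM at FDMR 6 h, against 16.7, 16.1, 16.1 and 16.3 CPM at FDMR 0 h (log2 fold change 0.64, SE 0.15, adjusted p = 0.0219). It was not called without chick 18, 21, 9, 10, 12 or 13 (0.0509 to 0.0863) or without chicks 23 and 9 (0.0537). The coactivator NCOA2 averaged 98 ± 4.49 CPM at FDMR 6 h and 122 ± 13.9 CPM at FDMR 0 h (SD, n = 4 each; log2 fold change -0.32, SE 0.08, adjusted p = 0.0341), lost without chick 18, 19, 21, 23, 10 or 12 (0.054 to 0.144) and without chicks 23 and 9 (0.111). The list held 0 called genes without chick 18, 21, 10 or 12 or without chicks 23 and 9, and 1 without each other chick.

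Of 49 DNA replication and cell cycle genes 3 were higher and 1 lower (8.16% called, median 0.03). DEK, a chromatin protein, had 185, 147, 163 and 169 CPM at FDMR 6 h, against 93.3, 98.6, 118 and 98.7 CPM at FDMR 0 h (log2 fold change 0.70, SE 0.10, adjusted p = 0.000347). KIF2C, a kinesin of mitosis, had 61.3, 65.5, 63.5 and 55.6 CPM at FDMR 6 h, against 95.5, 82.2, 91.3 and 91.3 CPM at FDMR 0 h (log2 fold change -0.55, SE 0.08, adjusted p = 0.000176). Both separated the groups, in opposite directions. CDCA7, a cell cycle gene, and DTL, a ubiquitin ligase subunit of replication, stood at 0.93 and 0.55 on the log2 scale (adjusted p = 0.0218 and 0.0303). The CDCA7 call was lost without chick 18, 10 or 13 (0.0677 to 0.104) and that of DTL without chick 19, 21, 9, 10, 12 or 13 (0.0518 to 0.115), and neither was called without chicks 23 and 9 (0.0639 and 0.0658). The list held 2 called genes without chick 10 or chick 13, and 2 without chicks 23 and 9.

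In lists where the quasi-likelihood test called no gene lower, the number lower at an unadjusted p under 0.05 was 1 for clock activators, opsins, ER chaperones, cholesterol synthesis and amacrine genes, 2 for hypoxia, retinoic acid and horizontal cell genes, and 3 for fatty acid synthesis and bipolar genes. DESeq2 called 1 fatty acid gene and 1 retinoic acid gene lower, edgeR's likelihood ratio test 1 each for fatty acid, retinoic acid and hypoxia genes, and limma-voom 0 in these lists. For cytosolic chaperones no gene was higher by any of these tools or at an unadjusted p under 0.05. A fit of the 8 libraries alone called 1 hypoxia gene lower and 1 thyroid hormone gene in place of 2, and edgeR's likelihood ratio test called 7 cell cycle genes in place of 4. Of cholesterol genes 1 in place of 2 was called by limma-voom, without the filter on low counts or with a filter of 1 CPM, and without the filter 0 bipolar genes were called.

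**Figure D5:**
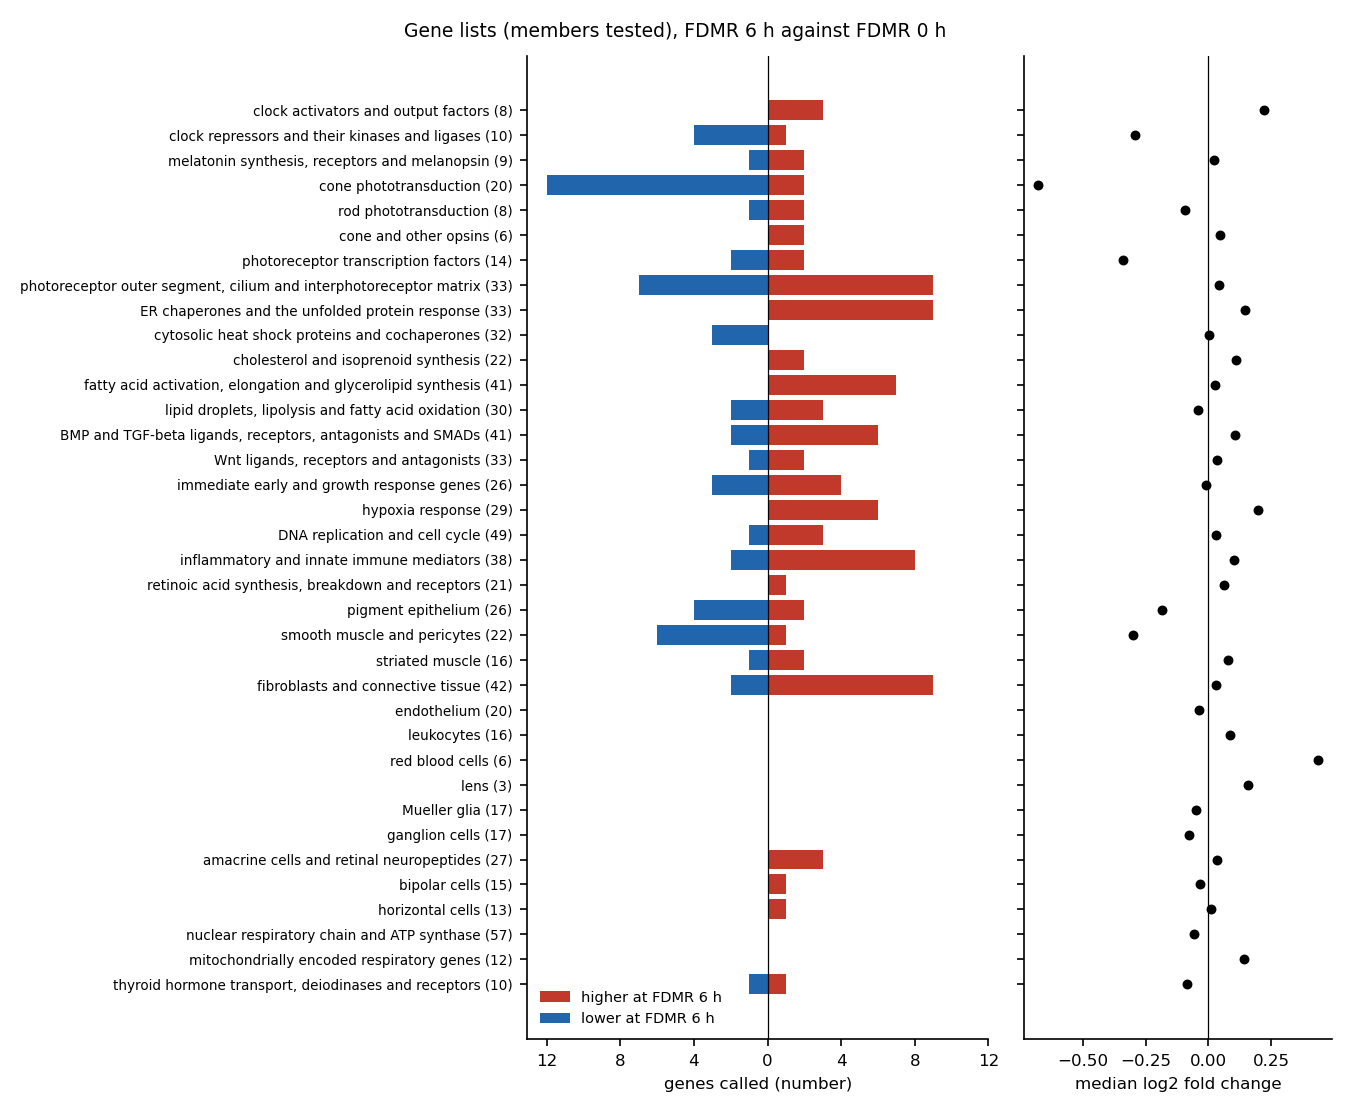
Bars on the left give the number of genes called higher (red, to the right) and lower (blue, to the left) at FDMR 6 h in each of 36 gene lists, with the number tested in brackets, and points on the right give the median log2 fold change of the members tested. Cone phototransduction has the longest bar, 12 lower, ER chaperones and fatty acid synthesis have bars on the higher side only, and endothelium, leukocytes, Mueller glia and ganglion cells have none.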

How the data were processed

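Whole-eyecup RNA (retina, RPE and choroid) from 16 chicks was sequenced and, per the labels and the study's methods, the authors trimmed reads (Trimmomatic, cutadapt), aligned them (TopHat2, Bowtie2; galGal4 build) and counted reads per gene with HTSeq; versions, annotation release and strand option are not given in the sources used here. The deposited values are raw read counts per gene. Without a known strand option, overlapping and antisense genes are uncertain, as are near-identical copies. The table's 6 lines that name no gene were kept out; counts on genes were 54.1% to 57.3% of the totals of the 8 libraries, 37.0% to 40.4% had no feature and 5.06% to 7.73% were not unique. Symbols came from the table (12968 genes), the study's tables (806) or RefSeq accessions (83), and 3250 genes had none.

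The 11334 genes that reached 10 counts in 4 or more of 16 libraries were scaled by TMM and tested with edgeR's quasi-likelihood test (R 4.3.3, edgeR 4.0.16), fitted over all 16 libraries so that the 4 groups shared 1 estimate of spread, with Benjamini-Hochberg adjustment. P-values measure the spread between chicks, 1 library each. Alternatives were DESeq2 1.42.0, limma-voom (limma 3.58.1), edgeR's likelihood ratio test, RLE scaling, other filters, thinning to 1553717 counts, an FDR of 1%, the 8 libraries alone and each chick left out. Tables and plots used Python 3.11.15, pandas 2.3.3, numpy 2.4.6 and matplotlib 3.10.9. In simulated counts for this comparison, 174 of 200 genes changed by 1 on the log2 scale and 11 unchanged genes were called among 11334. These counts had the same spread for every gene and no chick standing apart. They therefore do not give the error rates of the real data. A count of 10 has a 95% interval of 4.8 to 18.4 (counting error only). The text names the 10 largest rises and falls without overlap and with 10 or more counts on average, and up to 4 called genes per list with the smallest p (all called clock and cone genes); other called genes were picked after their values were seen. Not every gene that met this rule is reported here. The members and the 36 lists were chosen with earlier results of these data known. No sequencing batch was named in the labels, and promoter sequences were not analysed here.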

Additional observations from a re-analysis of the deposited data

Results flagged for a closer look

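Among the named genes, each group of 4 chicks was searched for a single chick far from the other 3, by the gap to its nearest neighbour relative to the whole range, and 9 of 212 gene and group pairs stood out, where chance gives about 1 in 20. In FDMR 6 h chicks, WNT9A stood at 1.471 CPM in chick 18, against 0.2142 to 0.2572 CPM in the other 3, and CLUL1 at 1276 CPM in chick 21, against 1163 to 1171 CPM. Chick 23 was the lowest of its group for KLHL34, at 3.887 CPM against 7.353 to 7.716 CPM, and for GRK7, at 121.9 CPM against 153.3 to 156.9 CPM. In FDMR 0 h chicks, chick 13 was the highest for PTX3, at 1.239 CPM against 0.5474 to 0.5761 CPM, and for CHGA, at 724.7 CPM against 640.3 to 647 CPM. The flags on WNT9A and PTX3 rest on few counts, 2.25 on average at FDMR 6 h and 3 at FDMR 0 h. BMP2 stood at 6.913 CPM in FDMR 0 h chick 12, against 3.284 to 3.451 CPM in the other 3. In FDMR 0 h chick 10, PDIA4 was the lowest of its group at 113 CPM, against 124.3 to 126.2 CPM, and NCOA2 the highest at 142.9 CPM, against 112.8 to 116.9 CPM.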

How the results depend on the processing

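Against 362 called genes (227 higher, 135 lower), DESeq2 called 437 (271 higher, 166 lower), limma-voom 371, edgeR's likelihood ratio test 473, RLE scaling 366, no filter 338, a filter of 1 CPM 368 and a fit of the 8 libraries alone 375. An FDR of 1% left 210 (137 higher, 73 lower), and thinning every library to 1553717 counts left 143 higher and 102 lower. With 1 chick left out 269 to 302 genes were called, 167 to 202 higher and 98 to 109 lower. No named gene changed direction under the 18 alternatives, of which that without chicks 23 and 9 (268 called) was chosen after the data were seen, and 69 of 106 were called under every one, while 82 were called whichever 1 chick was left out. Of the 36 gene lists, the number of called genes moved by over 1.5 times in 15 at an FDR of 1%, in 12 after thinning, in 6 to 12 with 1 chick left out, in 10 without chicks 23 and 9, and in 0 to 3 under the other alternatives. The median log2 fold change of all genes moved by at most 0.0225. No paired analysis was possible because the chick numbers are not shared between groups. Depth limits genes of low count: 5 called genes had a mean under 10 counts.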

Other observations

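Of the called genes, 135 higher and 82 lower belonged to no list. Those given here were chosen after their values were seen. Both monoamine oxidases, which break down catecholamines and serotonin, were lower: MAOA averaged 26.4 ± 3.47 CPM at FDMR 6 h and 43.8 ± 6.34 CPM at FDMR 0 h (SD, n = 4 each; log2 fold change -0.73, SE 0.16, adjusted p = 0.0132 by edgeR), and MAOB 25.6 ± 3.14 CPM at FDMR 6 h and 44.8 ± 6.81 CPM at FDMR 0 h (log2 fold change -0.81, SE 0.20, adjusted p = 0.0264). The MAOA call was lost without chick 23 or 9 (0.0517 to 0.0555) and the MAOB call without chick 18, 19, 23, 10, 12 or 13 (0.0575 to 0.0952), and without chicks 23 and 9 neither was called (0.127 and 0.0541). SLC6A2, annotated as the noradrenaline transporter, averaged 25.9 ± 5.49 CPM at FDMR 6 h and 7.95 ± 3.29 CPM at FDMR 0 h (log2 fold change 1.71, SE 0.26, adjusted p = 0.000418). The glutamate transporter SLC1A2 averaged 144 ± 3.06 CPM at FDMR 6 h and 197 ± 10.3 CPM at FDMR 0 h (log2 fold change -0.45, SE 0.09, adjusted p = 0.00553).

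NPR3, the clearance receptor of natriuretic peptides, had 21.1, 36.4, 30.6 and 30.4 CPM at FDMR 6 h, against 9.58, 10.3, 9.22 and 7.23 CPM at FDMR 0 h (log2 fold change 1.72, SE 0.20, adjusted p = 1.71e-05). The groups did not overlap, and at FDMR 24 h against FDMR 0 h its log2 fold change was 1.76. RGS16, a regulator of G protein signalling, had 73.3, 110.5, 110.3 and 101 CPM at FDMR 6 h, against 35.3, 40.3, 29.4 and 36.1 CPM at FDMR 0 h (log2 fold change 1.48, SE 0.14, adjusted p = 2.83e-06). SLC30A8, a zinc transporter, had 9, 18, 13 and 17 counts in FDMR 6 h chicks, against 0, 0, 0 and 2 counts in FDMR 0 h chicks.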
